A study of Rattus norvegicus with 7 samples.

Results

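The mir-26 and mir-101 families were examined in the small RNA of the developing rat retina. Members were the features annotated as miRNA whose symbol is mir-26 or mir-101 with any letter or copy number, and 4 of the 571 miRNA features met this rule, out of 5491 features in all. They are Mir26a and Mir26b of the first family and Mir101a and Mir101-2 of the second, Mir101-2 being listed in RefSeq under the older symbol Mir101b. The retinas came from untreated Wistar WU rats at postnatal days 1, 3, 5, 7, 10, 15 and 21 (P1 to P21, the day of birth being P0). RNA of 3 retinas was pooled at each age, size-selected for small RNA and sequenced 2 times on the Ion Torrent PGM. Each age has 1 deposited value per feature, in FPKM (fragments scaled by the length of the feature and the size of the library), so the variation among animals is unknown and no test between ages was run. In a bulk sample, fewer cells of a type and less RNA per cell cannot be told apart.

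A miRNA is cut from a hairpin precursor and loaded into an Argonaute protein, where the seed at its 5′ end pairs with messenger RNAs and lowers their translation and stability. Members of mir-26 and mir-101 are known as repressors of Ezh2, the catalytic subunit of Polycomb repressive complex PRC2. Ezh2 methylates histone H3 and keeps developmental genes silent, and in the retina it is known for its role in progenitor cells and in the timing of differentiation. Ezh2 itself is a messenger RNA and was not measured in these small RNA libraries.

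The mature guide strands are shown because the seed, and with it the predicted set of targets, is the same within each family while the rest of the molecule is not. Capitals mark the seed, bases 2 to 8 counted from the 5′ end. The sequences are those of RefSeq for the assembly GRCr8, in which all 4 loci were found.
rno-miR-26a-5p: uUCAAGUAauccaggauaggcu
rno-miR-26b-5p: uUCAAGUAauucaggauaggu
rno-miR-101a-3p: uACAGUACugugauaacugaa
rno-miR-101b-3p: uACAGUACugugauagcugaa

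rno-miR-26a-5p and rno-miR-26b-5p are identical over their first 10 bases and carry the substitutions C11U and C21U, written with the base of rno-miR-26a-5p first and the position counted from the 5′ end. rno-miR-101a-3p and rno-miR-101b-3p are identical over their first 15 bases and differ by 1 substitution, A16G. No other mature miRNA in the RefSeq table shares bases 2 to 8 with either family. rno-miR-144-3p, a miRNA best known from red blood cells, shares bases 2 to 7 with mir-101.
rno-miR-144-3p: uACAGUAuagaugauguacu

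The hairpins show where the guide strand lies, and here capitals mark the guide strand.
Mir26a hairpin: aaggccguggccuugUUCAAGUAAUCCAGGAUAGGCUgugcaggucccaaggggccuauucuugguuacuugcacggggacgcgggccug
Mir26b hairpin: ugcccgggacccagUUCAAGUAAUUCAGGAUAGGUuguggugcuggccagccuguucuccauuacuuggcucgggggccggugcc
Mir101a hairpin: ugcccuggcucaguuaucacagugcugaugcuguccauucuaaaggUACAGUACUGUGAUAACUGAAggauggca
Mir101-2 hairpin: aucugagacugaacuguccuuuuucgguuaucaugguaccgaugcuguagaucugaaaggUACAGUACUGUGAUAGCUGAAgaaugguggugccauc

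The guide strand is on the 5′ arm in the mir-26 hairpins and on the 3′ arm in the mir-101 hairpins. The deposited values are per locus, so the arms cannot be told apart in them. In Rnor_6.0, the build of the files, Mir26a (ENSRNOG00000035582.1) lies on the forward strand at chr8:127714441-127714530. Mir26b (ENSRNOG00000035608.1) lies on the forward strand at chr9:81675275-81675359. Mir101-2 (ENSRNOG00000035532.1) lies on the forward strand at chr1:247263723-247263819, and Mir101a (ENSRNOG00000035599.1) on the reverse strand at chr5:120168433-120168515. The Mir101a gene of Rnor_6.0 has 83 bases and the hairpin shown has 75. The measured Mir101a feature of 62 bases could therefore not be placed on the arms of that hairpin. In the RefSeq gene list of GRCr8, both mir-26 loci sit inside genes of small CTD phosphatases, Mir26a in Ctdspl and Mir26b in Ctdsp1. Mir101-2 sits inside the protein-coding gene Rcl1 and Mir101a inside the long noncoding RNA LOC120102934. None of them has another miRNA within 50 kb, so each is a single-miRNA locus on its own chromosome.

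The depth behind the values was estimated from the low FPKM values, which fall on whole multiples of a smallest step set by the feature's length. At P1, 99.98% of 4618 low values were whole multiples of 1 step. At P3, P5, P7, P10 and P15 all low values were sums of 2 steps, and at P21 all 1680 low values were sums of 4, as when a library joins several sets of reads scaled separately. These are called read sets here and were not assigned to sequencing runs. Their number equals the 2 rounds of sequencing at P3, P5, P7, P10 and P15. It differs at P1, with 1 set, and at P21, with 4. What the sets stand for was not tested. The steps were derived from these same low values, and only feature lengths that gave a step at P1 were scored. The shares near 100% therefore describe the fit and do not test it. Taking equal signal from each set, the libraries held between 297085 (P1) and 1361840 (P21) alignments. Where values could be divided, the first set carried 40.6% to 67.7% of the signal, so equal signal is only approximate, and any division is allowed for by bounds of 127485 to 774567 at P15 and 448322 to 1789060 at P21. Of the alignments, miRNAs took 39.1% at P3 and 58.1% to 74.2% at the other ages. Small nucleolar RNAs took 34.3% at P3 and at most 9.39% elsewhere. Of the markers looked for, 5 of 5 neuronal loci were found, summing to between 8.33% and 47.7% of the miRNA alignments. Nearly all of that was Mir124, with 8.22% at P1 and 47.7% at P21. With the 3 Mir124 loci counted once the sum was 3.01% to 23.4%. The Mir124 loci were 11.5-fold to 11.8-fold higher at P21 than at P1, but Mir128-1 only 1.27-fold and Mir128-2 1.54-fold. Of the photoreceptor miRNAs, 2 of 3 were found, at 1.21% to 6.04%. The 2 miRNAs listed for pigment epithelium, Mir204 and Mir211, summed to between 2.31% and 5.85%. Whether cells of that neighbouring layer were in the pools was not tested. The 3 muscle miRNAs found of 5 stood at 0.163% at P3 and 0.0987% at P5, against 0.00507% to 0.0163% at the other ages. Blood markers (2 of 4 found) ranged from 0.0169% to 0.0781% and the endothelial Mir126a (1 of 2 found) from 0.157% to 1.05%, each highest at P1. No marker found was at 0 in any library, and the part of these cell types in the levels below was not tested.

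A pair of errors is given with each difference. The first is a 95% counting interval from the estimated alignments. The second adds the spread between the read sets of a library, which was measured at P3 to P15 on 61 to 163 miRNAs whose value could be divided between 2 sets. Their log2 ratio between sets had an SD of 0.97, 0.69, 0.44, 0.88 and 0.66 in order of age, where counting alone would give 0.29 to 0.30. Counting intervals therefore understate the error where the spread was measured. Only values up to 300 times the P1 step, with at least 20 alignments in each set, were used. Mir26a, Mir101a and Mir101-2 lay above that limit and could not be divided at any of these ages. The wider interval assumes that members vary like the scarcer miRNAs used, which was not tested. The spread was not measured at P1, which has 1 step, or at P21, where 4 sets could not be divided. There it was taken from the median of the other ages, so the P1 to P21 intervals rest on a borrowed value. Neither interval covers variation between animals, and PCR copies are not independent molecules.

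By the mean over the ages all 4 members were among the more abundant miRNAs of the retina, though Mir26b fell to place 122 by FPKM at P5. Mir101a ranked 7 of 571 by mean FPKM, Mir26a 27, Mir101-2 34 and Mir26b 66. By mean estimated alignments the places were 13, 26, 51 and 73. The scales differ because FPKM weights an alignment by feature length. At P1 a single alignment was worth 156 FPKM on the Mir101a feature of 62 bases and 72.3 FPKM on the Mir26a feature of 89 bases, so 2138 alignments of Mir101a and 1870 of Mir26a became 334045 and 135233 FPKM. Both families together held between 2.21% (P5) and 2.99% (P1) of the estimated miRNA alignments.

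Mir26a, the more abundant locus of its family, had, in order of age from P1 to P21, levels of 135233, 152396, 128266, 123119, 207112, 190378 and 168759 FPKM. The highest and the lowest age differed 1.68-fold, with P10 and P15 at the top and P5 and P7 at the bottom. With the read set spread included, the interval of the difference held 0 for all 21 pairs of ages, so no order of the ages stands out of that spread. The spread was taken from scarcer miRNAs than Mir26a.

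Mir26b had, in order of age from P1 to P21, levels of 29343, 26355, 13957, 18278, 63209, 59653 and 31706 FPKM. It varied most of the members, 4.53-fold between P5 and P10, and P10 and P15 were its highest values. For 10 of 21 pairs the interval with read sets lay off 0. Among neighbours in the order of levels, the step from P15 down to P21 was 0.91 log2 units (0.17 to 1.65), and the other 5 steps were within the read set spread. Mir26b was also the locus whose value could be divided between read sets at 2 ages. At P3 the sets held 321 and 44 alignments, or 41472 and 11238 FPKM, which is 3.69-fold apart within 1 library. Over the 61 divided miRNAs of P3 the log2 ratio of these sets had a median of 1.14, so most of that gap was common to the library. At P5 they held 129 and 57 alignments, or 14881 and 13032 FPKM, 1.14-fold apart, with a median log2 ratio of 0.42 over 77 miRNAs. Both P5 sets thus held similar values, but the second P3 set, at 11238 FPKM, lay below either of them. The divided sets therefore do not place P5 below P3.

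Mir101a, the most abundant member, had, in order of age from P1 to P21, levels of 334045, 328082, 426102, 339048, 656192, 588785 and 786188 FPKM. Each of the 3 oldest ages lay above each of the 4 youngest. The range over all ages was 2.40-fold, and 6 of 21 pairs lay off 0 with read sets. No step between neighbours in the order exceeded the read set spread.

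Mir101-2, the second source of mir-101, had, in order of age from P1 to P21, levels of 111447, 78349, 88348, 63578, 107265, 94427 and 112567 FPKM. The youngest and the oldest retina had nearly the same value, and P7 was the lowest. The range was 1.77-fold and 1 of 21 pairs lay off 0 with read sets.

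**Figure D1:**
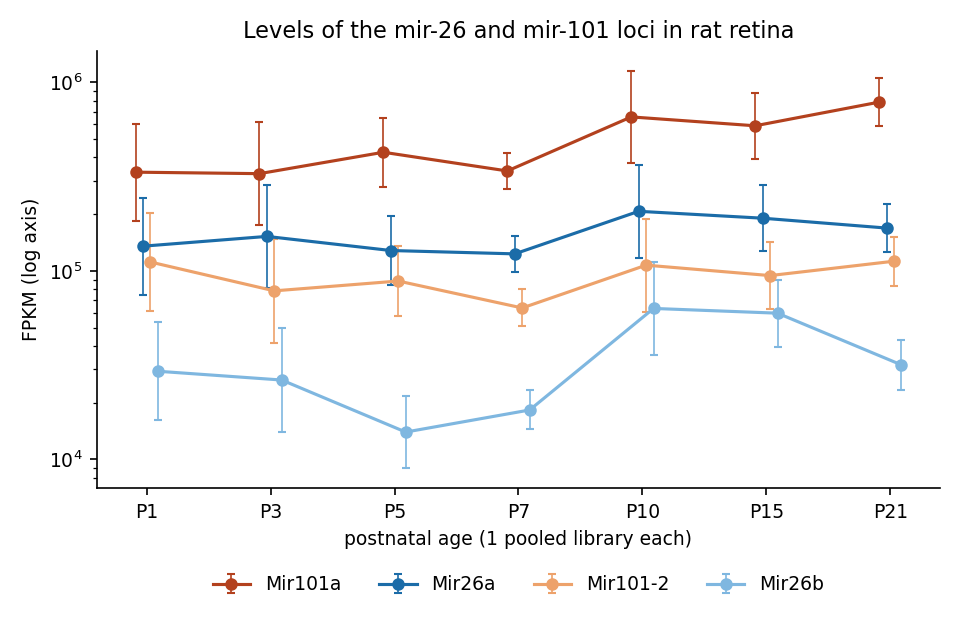
FPKM (log axis) of the 4 loci at the 7 ages, 1 pooled library each, with bars for the 95% interval that includes counting error and the spread between read sets. Mir101a is highest at every age and Mir26b lowest, Mir26b spans 4.53-fold and Mir26a 1.68-fold, and all 4 are higher at P10 than at P7.

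Between P7 and P10 all 4 loci were higher at the later age. The difference in log2(FPKM + 1) was 1.79 for Mir26b (0.90 to 2.68 with read sets) and 0.95 for Mir101a (0.077 to 1.83). It was 0.75 for Mir26a (-0.13 to 1.63) and 0.75 for Mir101-2 (-0.13 to 1.64). Only Mir26b, at 3.46-fold, passed 2-fold, which makes 1 of 4 members beside 25.9% of all miRNA features that were at least 2-fold higher at P10. The median of all miRNAs was 0.088, and the upper quartile, 1.05, was exceeded by Mir26b alone of the members. The loci stayed higher at P10 under the 3 other scalings, by at least 0.28 (Mir26a), 1.32 (Mir26b), 0.28 (Mir101-2) and 0.48 (Mir101a). As a share of miRNA alignments the differences were smaller, 0.11, 1.15, 0.11 and 0.31 in the same order, and 0.041, 1.08, 0.045 and 0.24 with Mir124 counted once. The share of all miRNAs at least 2-fold higher was 14.4% under TMM, where 32.4% were at least 2-fold lower. Summed over loci, the families differed by nearly the same amount, 0.93 for mir-26 (0.22 to 1.65) and 0.92 for mir-101 (0.16 to 1.68).

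Between P1 and P21, the ends of the series, both families were higher in FPKM at the later age, mir-101 more than mir-26, although the gap between them was within the read set spread. The summed mir-26 level was 164576 FPKM at P1 and 200465 at P21, a log2 difference of 0.28 (0.21 to 0.36 by counting, -0.53 to 1.09 with read sets). The summed mir-101 level was 445492 FPKM at P1 and 898755 at P21, a log2 difference of 1.01 (0.96 to 1.07 by counting, 0.24 to 1.79 with read sets). The mir-101 difference exceeded the mir-26 difference by 0.73 (0.64 to 0.82 by counting), but with read sets the interval ran from -0.39 to 1.85. By locus, Mir101a was 2.35-fold higher at P21 and supplied the family's difference in the deposited values, with 1.23 log2 units (0.28 to 2.19 with read sets). Mir26a differed by 0.32 (-0.64 to 1.28), Mir26b by 0.11 (-0.86 to 1.08) and Mir101-2 by 0.014 (-0.95 to 0.98). Thus 1 of 4 members was at least 2-fold higher at P21 and 0 of 4 at least 2-fold lower. Of all miRNA features 31.5% were at least 2-fold higher and 32.9% at least 2-fold lower, with a median of -0.049. Scaled to the miRNA total these shares were 23.6% and 43.6%.

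These differences depend on how the libraries are scaled. As a share of the estimated miRNA alignments, mir-26 went from 1.25% at P1 to 0.764% at P21, a log2 difference of -0.71, and mir-101 from 1.74% to 1.68%, a difference of -0.047. Scaled to the summed miRNA FPKM, mir-26 was lower at P21 (-0.34) and mir-101 higher (0.39). So the sign of the mir-26 difference turned with the scaling, and that of mir-101 turned on the alignment scale as long as all 3 Mir124 loci were counted. The difference between the families kept its sign, but a factor common to a whole library cancels from it. Its sign was thus fixed in advance under these scalings, and on the alignment scale only the weights of the loci differ. On the alignment scale mir-26 was lowest at P21 and P5 (0.791%) and highest at P1, and mir-101 stayed between 1.35% and 1.74%. Mir101a alone held 1.20% at P1 and 1.41% at P21, while Mir101-2 held 0.538% at P1 and 0.272% at P21, its lowest share. These shares depend on Mir124, whose 3 loci had nearly equal alignments and summed to 8.22% of the miRNA alignments at P1 and 47.7% at P21. Whether the same reads were counted at these loci was not tested. With Mir124 counted once in the total, mir-26 went from 1.33% to 1.12%, a difference of -0.24, and mir-101 from 1.84% to 2.47%, a difference of 0.42.

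**Figure D2:**
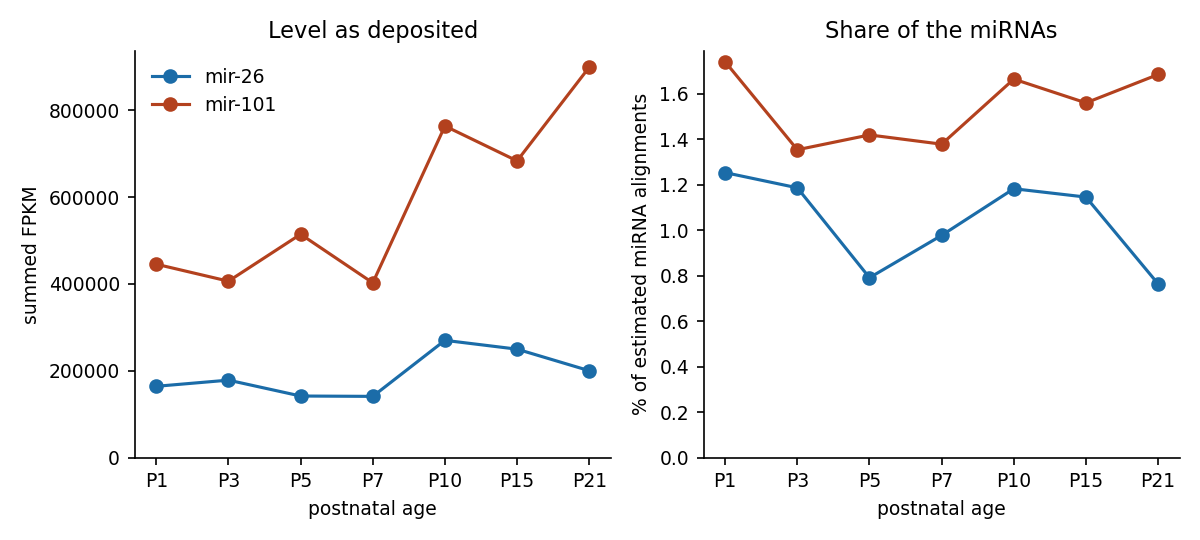
Left, summed FPKM of mir-26 (blue) and mir-101 (red) at each age, and right, the same families as a percentage of the estimated miRNA alignments. In FPKM mir-101 goes from 445492 at P1 to 898755 at P21, whereas its share goes from 1.74% to 1.68%, and the mir-26 share is lowest at P21 (0.764%).

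Ratios between loci of 1 family are free of any scaling of whole libraries. They are not free of reads shared between the loci or assigned to the wrong one, which was not tested. Mir26a exceeded Mir26b 4.61-fold, 5.78-fold, 9.19-fold, 6.74-fold, 3.28-fold, 3.19-fold and 5.32-fold at the 7 ages in order from P1 to P21. The mir-26 family was therefore most dominated by Mir26a at P5 and least at P10 and P15. The ratio at P5 exceeded that at P15 by 1.53 log2 units (1.24 to 1.81 by counting, 0.31 to 2.75 with read sets). These ages were picked as those of the highest and the lowest ratio, and the intervals make no allowance for that choice. Mir101a exceeded Mir101-2 3.00-fold, 4.19-fold, 4.82-fold, 5.33-fold, 6.12-fold, 6.24-fold and 6.98-fold at the 7 ages in order from P1 to P21. This ratio was higher at each successive age, and at P21 it exceeded that at P1 by 1.22 log2 units (1.09 to 1.35 by counting). With read sets the interval ran from -0.14 to 2.58, so the whole course from P1 to P21 lay within the read set spread. For comparison, over 79 pairs of loci whose symbols share their miRNA number, the log2 ratio had a median range over the ages of 1.18 (quartiles 0.59 and 2.51). The mir-101 pair and the mir-26 pair were near that median, with places 43 and 49 from the narrowest. The pairs include copies with nearly constant ratios, such as Mir124-1 and Mir124-3 (range 0.028), and several pairs from 1 family, such as mir-30. The median is therefore no benchmark for loci with distinct mature sequences. Between the families, mir-101 exceeded mir-26 in FPKM by 2.27-fold at P3, 2.71-fold to 3.62-fold at P1 and P5 to P15, and 4.48-fold at P21. The size of this excess depends on feature length, since FPKM gives more weight to an alignment on a short feature. In estimated alignments mir-101 and mir-26 stood at 3096 and 2230 at P1, 2635 and 2309 at P3, and 16564 and 7517 at P21.

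**Figure D3:**
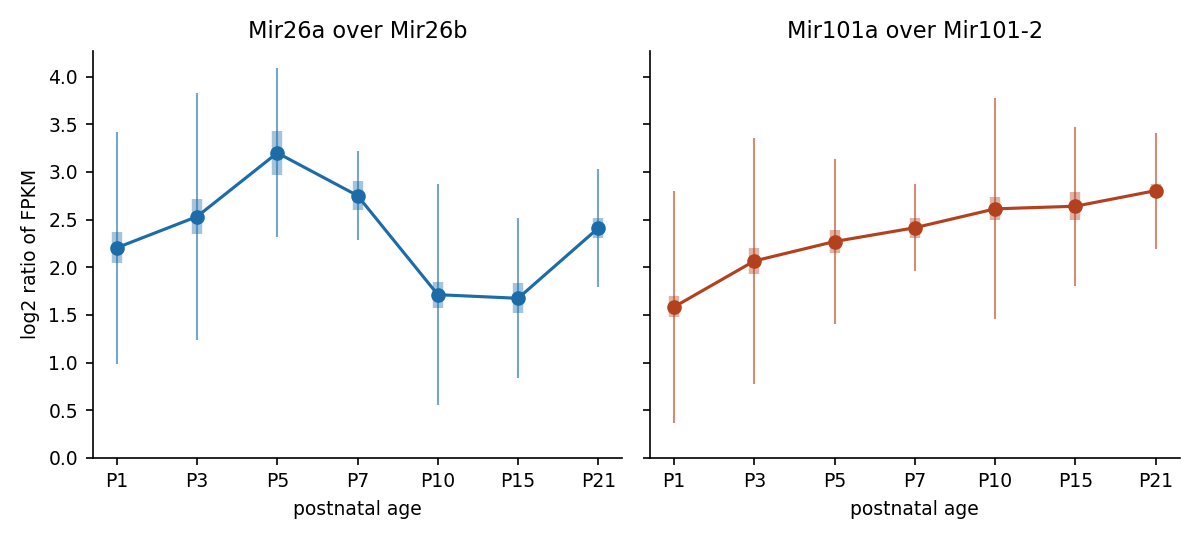
Log2 ratio of FPKM between the loci of mir-26 (left) and of mir-101 (right) at each age, with thick bars for the 95% counting interval and thin lines for the interval that includes the read set spread. The mir-26 ratio peaks at P5 (9.19-fold) and is lowest at P15 (3.19-fold), and the mir-101 ratio goes from 3.00-fold at P1 to 6.98-fold at P21.

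Compared with other miRNAs, the values of Mir26a and Mir101-2 varied little over the first 3 weeks. The ranges below rest on 1 value per age and make no allowance for the read set spread. With that spread, the log2 difference between the highest and the lowest age ran from -0.13 to 1.63 for Mir26a (P10 and P7). For Mir101-2 (P21 and P7) it ran from 0.28 to 1.37. Among 342 miRNA features with a mean of at least 20 alignments and a value above 0 at every age, the highest and the lowest age differed by a median of 4.68-fold. Only 8 of these had a smaller range than Mir26a and 12 a smaller range than Mir101-2, while 51 had a smaller range than Mir101a and 166 a smaller one than Mir26b. Under the other scalings the place of Mir26a among the 342 was 10 to 34, and that of Mir101-2 was 6 to 39. Features with few alignments vary more by counting alone. Among the 73 features at least as deeply covered as Mir26b, the median was 4.32-fold and the places from the flattest were 4 for Mir26a, 7 for Mir101-2, 16 for Mir101a and 39 for Mir26b. Under the other scalings Mir26a kept a place between 6 and 9 of 73. Mir101-2 ranged between 3 and 15, and Mir101a between 1 and 24, so the flatness of Mir101a depended on the scale.

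**Figure D4:**
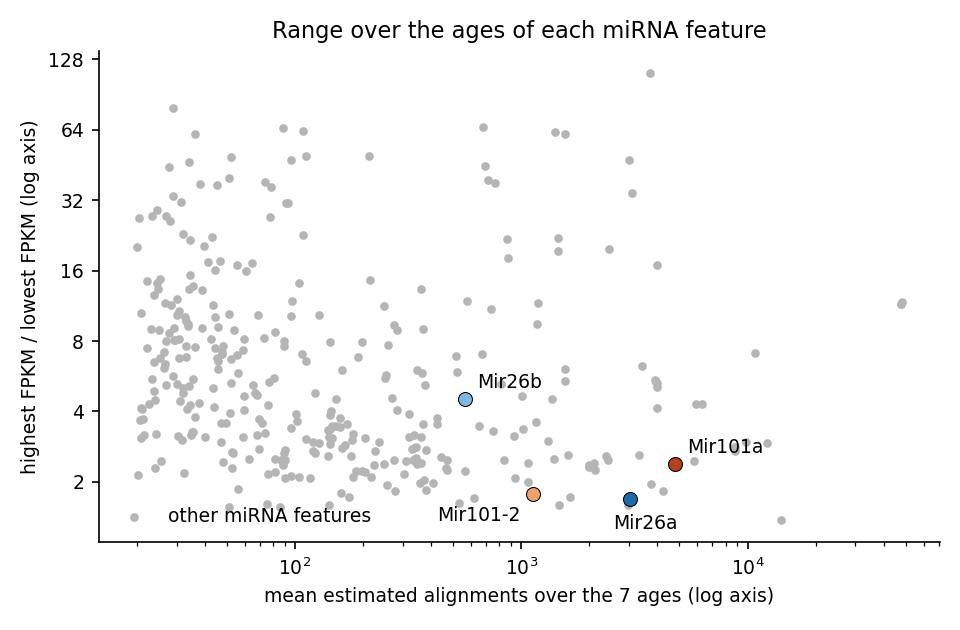
Highest FPKM divided by lowest FPKM over the 7 ages (log axis) against mean estimated alignments (log axis) for 342 miRNA features, with the 4 members in colour. Mir26a (1.68-fold) and Mir101-2 (1.77-fold) lie at the lower edge, and Mir26b (4.53-fold) lies near the median of 4.68-fold.

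The profile of each family was set beside those of 339 other miRNA features, by the root mean square difference of the centred log2 levels over the 7 ages, each age being 1 library. The feature nearest to mir-26 was AABR07057421.1 (ENSRNOG00000047216.1), a miRNA known only by a clone name, at chr7:70287313-70287396 of Rnor_6.0, with a difference of 0.10. In order of age from P1 to P21 its levels were 151196, 169007, 136502, 137359, 217342, 205190 and 190574 FPKM. At every age its estimated alignments were 0.931 to 1.00 times those of Mir26a. Whether the same reads were counted at both loci was not tested, since no genome sequence was used. Next came Mir300 at 0.11, Mir128-2 at 0.19, Mir3578 at 0.20 and Mir376b at 0.21. Nearest to mir-101 were Mir499 at 0.18, Mir7a-1 at 0.18, Scarna15 (annotated as a miRNA in the file) at 0.20, and the let-7 loci Mirlet7f1 and Mirlet7f-2, both at 0.21. The difference between the mir-26 and mir-101 profiles was 0.30, and the median over all features was 0.76 from mir-26 and 0.77 from mir-101.

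The other miRNAs reported to target Ezh2 served as the rest of the pathway, and 9 of 10 listed loci were found. In this list 6 loci of 3 miRNAs (mir-124, mir-138 and mir-137) were at least 2-fold higher at P21 than at P1 and 3 loci of 3 miRNAs at least 2-fold lower, beside 31.5% and 32.9% of all miRNA features. The median log2 difference of 3.52 is the value of Mir124-1 itself and rests on copies of 1 miRNA, and the median over all miRNAs was -0.049. The neuronal miRNA mir-124 has 3 loci in the file, and Mir124-1 went from 391668 FPKM at P1 to 4500000 at P21, 11.5-fold. The other loci, Mir124-2 and Mir124-3, were 11.8-fold and 11.6-fold higher. Mean alignments of these loci were 47576, 47917 and 47450, so nearly equal that they cannot be taken as separate measurements. Mir138-1 and Mir138-2, copies of a miRNA of neuronal dendrites, were 11.8-fold and 13.3-fold higher at P21. Mir137, a brain-enriched miRNA, was 2.47-fold higher. Mir98, a member of the let-7 family, differed by -1.18 log2 units (-2.20 to -0.17 with read sets). Mir217 and Mir144 differed by -2.52 and -1.56, but rested on a mean of 13.6 and 15.1 alignments. Thus mir-124 and mir-138 were over 11-fold higher at P21, on the same scale on which mir-101 was 2.02-fold and mir-26 1.22-fold higher.

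**Figure D5:**
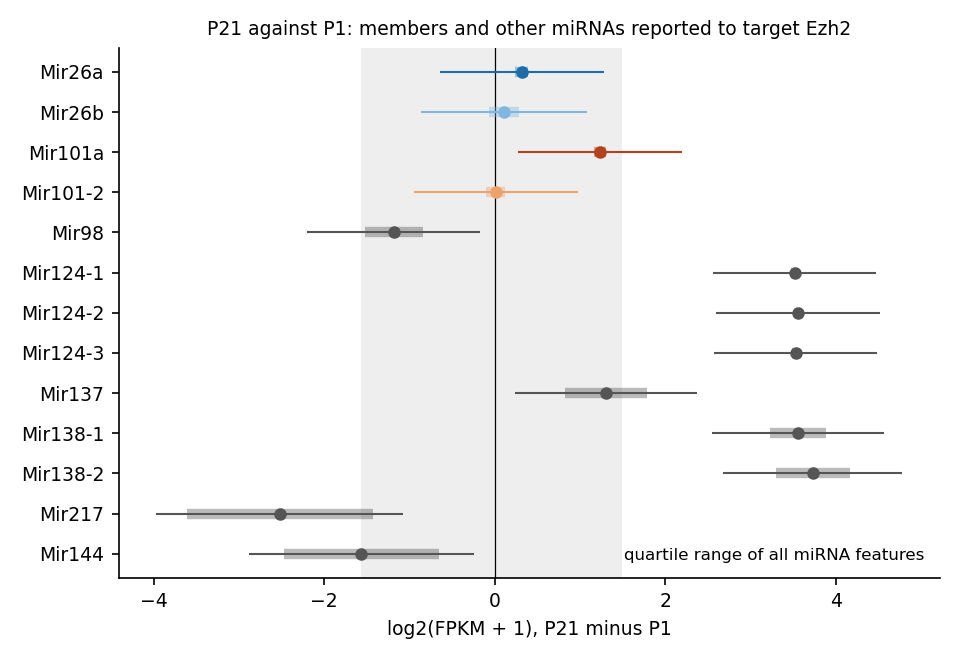
Difference in log2(FPKM + 1), P21 minus P1, for the 4 members (coloured) and the 9 listed loci (grey), with thick bars for the 95% counting interval, thin lines for the interval that includes the read set spread, and a shaded band for the range between the quartiles of all miRNA features. Mir101a (1.23) and the other members lie within the band, and the Mir124 and Mir138 loci lie above 3.5.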

How the data were processed

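Small RNA of pooled rat retina at 7 ages was analysed. The authors trimmed and mapped the reads to Ensembl noncoding RNAs of Rnor_6.0 with the Ion Torrent Suite and deposited FPKM values for 21 pairs of ages, made with Cufflinks and, per the submitters' processing notes, Cuffdiff 2.2.1.3. The deposited fold changes, test statistics, p-values and q-values of these pairs were not used. No count model fits FPKM and each age has 1 value, so no test was run. Levels were log2(FPKM + 1), and a family was the sum of its loci. Alignments were estimated from the steps of low values, tested on simulated data, with equal signal assumed for each read set. On simulated data the estimated spread between read sets was below the true one, so the wider intervals may still be too narrow. Of 724 feature lengths, 441 gave the value of 1 alignment directly and the rest were interpolated. A value at P1 was counted as whole within 0.02. The normalization between libraries is not given in the sources used here. Named miRNAs were the members, a list of miRNAs reported to target Ezh2, and the 5 nearest profiles per family. Members and lists were chosen with earlier results of these data known. Alternatives were scaling to the miRNA total, median of ratios, TMM (30% of ratios and 5% of levels trimmed), pseudocounts of 0.1 and 10, the mean of loci, the share of miRNA alignments, and leaving out ages. The interval with read sets, the shares with Mir124 counted once, the comparison with features as deep as Mir26b and the addition of the nearest profile to mir-26 were chosen after seeing the data. Mir-9 is not reported here. Python 3.11.15, numpy 2.4.6, pandas 2.3.3 and matplotlib 3.10.9 were used.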

Additional observations from a re-analysis of the deposited data

How the results depend on the processing

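Of 48 alternative values of log2 differences between P21 and P1, 7 changed sign, and pseudocounts of 0.1 and 10 moved none beyond the counting interval. The 48 include values that could not turn. Pseudocounts are small beside these levels, the interval with read sets repeats the main value, and library scaling cancels from the difference between families. The share of sign changes is therefore no measure of how firm the signs are. The P21 minus P1 log2 difference of mir-26 (0.28) became -0.34 scaled to the miRNA total, -0.71 as a share of miRNA alignments (-0.24 with Mir124 counted once), 0.36 by median of ratios and 0.43 by TMM. With AABR07057421.1 added to the family it was 0.31. That of mir-101 (1.01) became 0.39, -0.047 (0.42 with Mir124 counted once), 1.09 and 1.16 in the same order, and 0.62 as the mean of the loci. Scaling to the miRNA total gave -0.31 for Mir26a, -0.51 for Mir26b and -0.61 for Mir101-2. The difference between the families (0.73) became 0.41 as the mean of the loci. The lowest age of mir-26 (P7) became P21 scaled to the miRNA total and P5 by median of ratios and TMM, and its highest age (P10) became P15 under each of the 3. The lowest age of mir-101 (P7) became P3 by median of ratios and TMM, and its highest (P21) became P15 scaled to the miRNA total. Leaving out each age in turn, the lowest age ran from day 5 to 7 for mir-26 and from 3 to 7 for mir-101, and the highest from 10 to 15 and from 10 to 21. Scaling to the miRNA total changed the miRNAs at least 2-fold higher from 180 to 135 and lower from 188 to 249. A filter at 20 alignments changed the miRNAs at least 2-fold lower at P21 from 188 of 571 to 29.4% of 343, since fewer were counted. Against P21, scaling to the miRNA total shifted all miRNAs by 0.63 at P1 and 0.24 at P10. No paired analysis was possible because each age has 1 value and no test was run. The depth limits Mir26b most, with 182 alignments at P5.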

Other observations

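Within its own library each member kept a stable place among the 571 miRNA features except Mir26b. By FPKM Mir101a held places 5 to 13 over the ages, Mir26a places 21 to 31 and Mir101-2 places 30 to 38, whereas Mir26b moved between place 40 at P15 and place 122 at P5. At P3, the library in which small nucleolar RNAs took 34.3% of the alignments, the members' places by FPKM were 11, 24, 34 and 75 in the order Mir101a, Mir26a, Mir101-2 and Mir26b. The read set that carried most Mir26b alignments at P3 gave it 3.69 times the FPKM of the other set, within a library whose sets differed with an SD of 0.97 on the log2 scale around a median of 1.14 over 61 miRNAs.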
